A study of Oryza sativa with 12 samples.

Results

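The SPX and SPX-MFS genes of rice were followed in leaf blades of wild type (WT) and Oshmgb1 mutant seedlings at low and high phosphate (Pi). The family was taken as a fixed list of 9 loci, SPX1 to SPX6 and SPX-MFS1 to SPX-MFS3, and not by any measured value. Of these 9 loci, 8 stood in the deposited tables of 32846 genes, and 6 were among the 17630 genes that were tested because 3 or more libraries reached an FPKM of 1. SPX3 and SPX5 stayed under that filter. SPX6 (LOC_Os07g42330) was not analysed here. FPKM, the number of sequenced fragments scaled to transcript length and to all mapped fragments, corrects for transcript length and library size.

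SPX proteins carry a domain that binds inositol pyrophosphates, small molecules whose level follows the Pi status of the cell. When Pi is ample, SPX proteins hold the PHR transcription factors, MYB proteins that switch on Pi starvation genes, away from their targets; when Pi runs short, PHR proteins are released. Several SPX genes are themselves PHR targets, which makes a negative feedback loop. SPX-MFS proteins join the same domain to a transporter of the major facilitator superfamily and carry Pi across the vacuolar membrane, where plant cells store it. In rice, transcripts of SPX-MFS1 and SPX-MFS2 are targets of the microRNA miR827, which Pi shortage induces.

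The study sequenced 12 mRNA libraries in 4 groups of 3: Oshmgb1 mutant at low Pi, Oshmgb1 mutant at high Pi, WT at low Pi and WT at high Pi. OsHMGB1 is a high mobility group protein of chromatin. All 4 groups shared the first 14 d with high Pi in a greenhouse; the low-Pi groups then spent 7 d with low Pi, while the high-Pi groups stayed on high Pi to 21 d. The design text gives 200 µM for high and for low Pi alike, so the low concentration is not clear. The labels name no allele, line number or variety for the mutant, and do not say whether replicates were separate plants or pools. P-values therefore measure only the spread between these libraries, which may be technical.

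The OsHMGB1 transcript (LOC_Os06g51220) was lower in the mutant under both supplies, with 678 ± 78.7 FPKM in low-Pi mutant leaves, against 1895 ± 220 FPKM in low-Pi WT leaves (SD, n = 3 each). High-Pi mutant leaves had 539 ± 19.4 FPKM, against 1232 ± 68.2 FPKM in high-Pi WT leaves. The log2 folds were -1.48 at low Pi and -1.19 at high Pi, with adjusted p = 0.000266 and 0.00257 by limma. FPKM summed to 549457 to 583292 per library, and read depth is unknown. Of 6 leaf markers, 5 were detected at a high level and LOC_Os01g52240 was listed at 0 in 10 libraries. Summed over the 6, their level was 13543 to 19219 FPKM in the mutant at low Pi, 17325 to 25773 in the mutant at high Pi, 17002 to 30464 in WT at low Pi and 21778 to 21889 in WT at high Pi. Of the 5 tested, 1 was called between low and high Pi in the mutant, beside 18.8% of all tested genes. It was the Rubisco small subunit gene LOC_Os12g19381, which fell at low Pi (log2 fold -0.94, adjusted p = 0.0257 in limma). In WT 0 of the 5 were called, beside 13.3%. Between the genotypes 0 were called, beside 3.58% at high Pi and 15.9% at low Pi. The part of the LOC_Os12g19381 change in the mutant results was not tested. Of 3 root markers, 2 stayed at or below 0.40 FPKM, while the aquaporin LOC_Os02g51110 lay between 12.8 and 28.4 FPKM. In such bulk samples, fewer cells of a type and less RNA per cell cannot be told apart.

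Low Pi reordered the family. SPX2 rose and SPX-MFS3 fell in the mutant, and SPX1 and SPX2 rose and SPX-MFS3 fell in WT. The call threshold was a Benjamini-Hochberg adjusted p below 0.05 over all 17630 genes in limma. In the mutant, 2 of the 6 tested members were called between low and high Pi, beside a background of 18.8% of all tested genes. In WT, 3 of the 6 were called, beside 13.3%. The median log2 fold of the 6 members was 0.61 in the mutant, beside 0.00 over all tested genes, and 0.41 in WT, beside 0.07 over all. These medians mixed members with folds in opposite directions. The libraries at low and high Pi did not overlap for 4 of the 6 in the mutant, beside 37.5% of all tested genes, and for 5 of the 6 in WT, beside 32.6%.

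**Figure D1:**
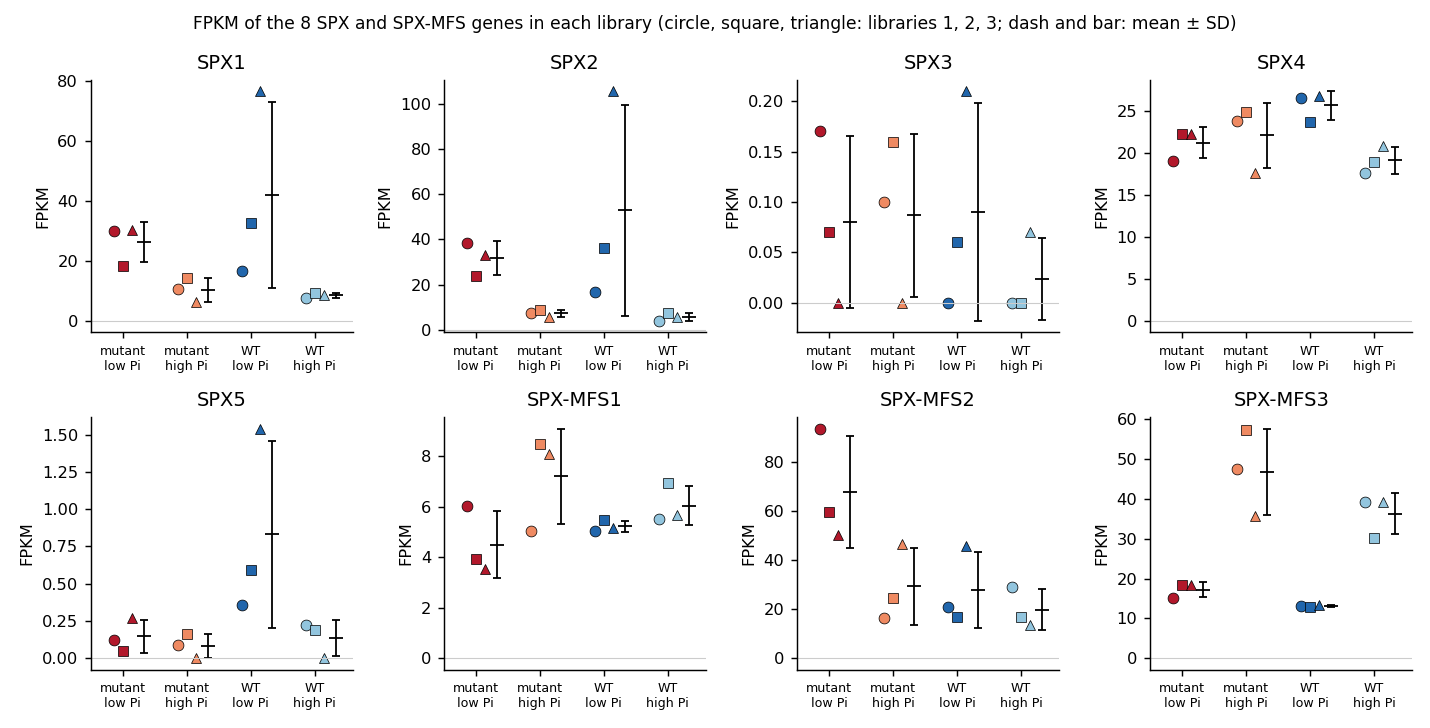
FPKM (linear vertical axes, each panel with its own range) of the 8 family members with data, by group, with 1 point per library (circle, square and triangle for libraries 1, 2 and 3) and the mean ± SD of 3 at the right of each group. SPX1 and SPX2 stand higher at low Pi in both genotypes, up to 76.6 and 106 FPKM in WT low-Pi library 3; SPX-MFS3 stands lower at low Pi in both; SPX3 stays at or below 0.21 FPKM.

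Levels per transcript length put the 6 tested members in the same order of means in both high-Pi groups and in another order in each low-Pi group. In mutant leaves at low Pi, SPX-MFS2 was highest with a mean of 67.8 FPKM, and its libraries did not overlap those of the next member. SPX2, SPX1 and SPX4 followed at 31.7, 26.2 and 21.2 FPKM, and neighbours among these 3 overlapped. SPX-MFS3 at 17.2 FPKM and SPX-MFS1 at 4.5 FPKM then stood apart from their neighbours. In mutant leaves at high Pi, SPX-MFS3 led with 46.8 FPKM, overlapping SPX-MFS2 at 29.3 FPKM, which overlapped SPX4 at 22.1 FPKM. SPX1, SPX-MFS1 and SPX2 came lower, at 10.3, 7.21 and 7.20 FPKM, each overlapping the next.

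In WT leaves at low Pi, SPX2, SPX1, SPX-MFS2 and SPX4 had means of 52.9, 41.9, 27.8 and 25.6 FPKM, and every neighbour in that order overlapped. Without library 3, left out after the data were seen, the means of the other 2 libraries were 26.5 FPKM for SPX2, 25.1 for SPX4, 24.6 for SPX1 and 18.9 for SPX-MFS2, so the order of these 4 rested on that library. SPX-MFS3 at 13.1 FPKM and SPX-MFS1 at 5.23 FPKM followed without overlap. In WT leaves at high Pi, SPX-MFS3 led alone with 36.2 FPKM. SPX-MFS2 and SPX4 overlapped at 19.7 and 19.1 FPKM, SPX1 followed at 8.58 FPKM, and SPX-MFS1 and SPX2 overlapped at 6.04 and 5.65 FPKM. The highest-ranked member was thus SPX-MFS3 at high Pi in both genotypes, and SPX-MFS2 in the mutant and SPX2 in WT at low Pi.

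SPX1 (LOC_Os06g40120) and SPX2 (LOC_Os02g10780) are the nuclear SPX proteins that bind PHR2 in rice. SPX1 had 29.8, 18.4 and 30.3 FPKM in mutant leaves at low Pi, against 10.6, 14.2 and 6.18 FPKM in mutant leaves at high Pi. It had 16.5, 32.7 and 76.6 FPKM in WT leaves at low Pi, against 7.69, 9.45 and 8.59 FPKM in WT leaves at high Pi. In both genotypes every low-Pi library lay above every high-Pi library. The WT low-Pi libraries were spread widely, and the third was the highest of all 12.

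The log2 fold of SPX1 in the mutant was 1.29 ± 0.44 (SE), with a 95% interval of 0.32 to 2.26, and it missed the threshold at adjusted p = 0.0624 in limma. In WT it was 1.91 ± 0.44, with an interval of 0.94 to 2.87 and adjusted p = 0.0166. The mutant value passed the threshold when WT low-Pi library 1 or 3 was left out (adjusted p = 0.0242 and 0.0162) and when only the mutant groups were fitted (adjusted p = 0.0315). The difference between the responses was not called, at -0.61 with an interval of -1.98 to 0.76 on the log2 scale. That interval covers both a far weaker and a stronger response in the mutant.

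SPX2 had 38.4, 23.6 and 32.96 FPKM in mutant leaves at low Pi, against 7.59, 8.63 and 5.39 FPKM in mutant leaves at high Pi. It had 16.6, 36.3 and 106 FPKM in WT leaves at low Pi, against 3.93, 7.48 and 5.54 FPKM in WT leaves at high Pi. No low-Pi library overlapped a high-Pi library of its genotype, and the third WT low-Pi library again stood above all others.

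SPX2 rose in the mutant with a log2 fold of 1.99 ± 0.50 (SE), an interval of 0.90 to 3.08 and adjusted p = 0.018. It rose in WT by 2.67 ± 0.50 on the log2 scale, with an interval of 1.58 to 3.76 and adjusted p = 0.00548. The mutant call was lost when library 1 or 3 at low Pi or library 3 at high Pi of the mutant was left out, at adjusted p = 0.0604, 0.0526 and 0.0508 in limma. The difference between the responses, mutant minus WT, was -0.68 with an interval of -2.22 to 0.86 and was not called.

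The spread of SPX1 and SPX2 among the low-Pi libraries was wide beside that of all tested genes, in the mutant and more so in WT. On the log2 scale the SD in the mutant was 0.39 for SPX1 and 0.35 for SPX2, at percentiles 93.5 and 91.1 of the tested genes, whose median SD in that group was 0.13. In WT it was 1.08 for SPX1 and 1.3 for SPX2, at percentiles 99.6 and 99.8, with a median of 0.15. At high Pi in the mutant the SD was 0.55 for SPX1 (percentile 94.5) and 0.31 for SPX2 (percentile 78.7). At high Pi in WT it was 0.13 for SPX1 (percentile 43.6) and 0.39 for SPX2 (percentile 91.2). SPX-MFS2 lay at percentiles 95.7 to 98.6 over the 4 groups. A wide spread was thus not particular to low Pi or to SPX1 and SPX2. SPX1 and SPX2 were lowest in library 1 and highest in library 3 of the WT low-Pi group. Over all tested genes, libraries 1, 2 and 3 of that group were the highest for 39.2%, 18.2% and 42.5%. Among the 1487 genes called higher at low Pi in WT, a set drawn from these same libraries, the shares were 23.3%, 16.4% and 60.3%.

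Without WT low-Pi library 3, the WT log2 fold was 1.35 for SPX1 (adjusted p = 0.0435, limma) and 1.98 for SPX2 (adjusted p = 0.00676). The mutant minus WT difference of the responses then came to -0.05 for SPX1 and 0.00 for SPX2. The mutant against WT fold at low Pi then changed sign, to 0.13 for SPX1 and 0.32 for SPX2. Why SPX1 and SPX2 were high in this library was not tested.

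SPX1 and SPX2 also shifted relative to each other. The ratio of SPX2 to SPX1 was 1.09 to 1.29 in mutant leaves at low Pi, against 0.61 to 0.87 in mutant leaves at high Pi. It was 1.01 to 1.38 in WT leaves at low Pi, against 0.51 to 0.79 in WT leaves at high Pi. SPX2 exceeded SPX1 in 6 of 6 low-Pi libraries and in 0 of 6 high-Pi libraries.

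SPX4 (LOC_Os03g61200, described in the files only as an expressed protein) holds PHR2 in the cytosol in rice and is broken down when Pi is short. It had 19.1, 22.3 and 22.3 FPKM in mutant leaves at low Pi, against 23.8, 24.9 and 17.6 FPKM in mutant leaves at high Pi. It had 26.5, 23.7 and 26.7 FPKM in WT leaves at low Pi, against 17.6, 18.9 and 20.8 FPKM in WT leaves at high Pi. The mutant groups overlapped, whereas each WT low-Pi library lay above each WT high-Pi library.

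The log2 fold of SPX4 was -0.04 ± 0.13 (SE) in the mutant, with an interval of -0.32 to 0.24 and adjusted p = 0.841 in limma. In WT it was 0.41 ± 0.13, with an interval of 0.13 to 0.69 and adjusted p = 0.0582, which missed the threshold. The WT value passed it without mutant high-Pi library 3 (adjusted p = 0.0188) and with only the WT groups fitted (adjusted p = 0.0473). The response difference of SPX4, mutant minus WT, was -0.45 ± 0.18 (interval -0.85 to -0.05), with unadjusted p = 0.0293 and adjusted p = 0.204 over all genes. It was the one member with an unadjusted p below 0.05 for that difference, and it did not pass the adjusted threshold. Of the 17630 tested genes, 3332 had an unadjusted p below 0.05 for that difference.

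SPX3 (LOC_Os10g25310) and SPX5 (LOC_Os03g29250), a pair of closely related members, were barely detected. SPX3 ranged from 0 to 0.21 FPKM and was listed at 0 in 5 of 12 libraries. SPX5 had 0.12, 0.05 and 0.27 FPKM in mutant leaves at low Pi, against 0.09, 0.16 and 0 FPKM in mutant leaves at high Pi. It had 0.36, 0.59 and 1.54 FPKM in WT leaves at low Pi, against 0.22, 0.19 and 0 FPKM in WT leaves at high Pi.

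The 3 WT low-Pi libraries were the highest of the 12 for SPX5, and library 3 was again the highest of them. With no filter on level, 28212 genes were fitted. SPX5 then had a log2 fold of 0.64 ± 0.19 (SE) for low against high Pi in WT (adjusted p = 0.073, limma) and of -0.63 ± 0.19 for mutant against WT at low Pi (adjusted p = 0.07). SPX3 lay between -0.10 and 0.09 in all 5 comparisons.

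**Figure D2:**
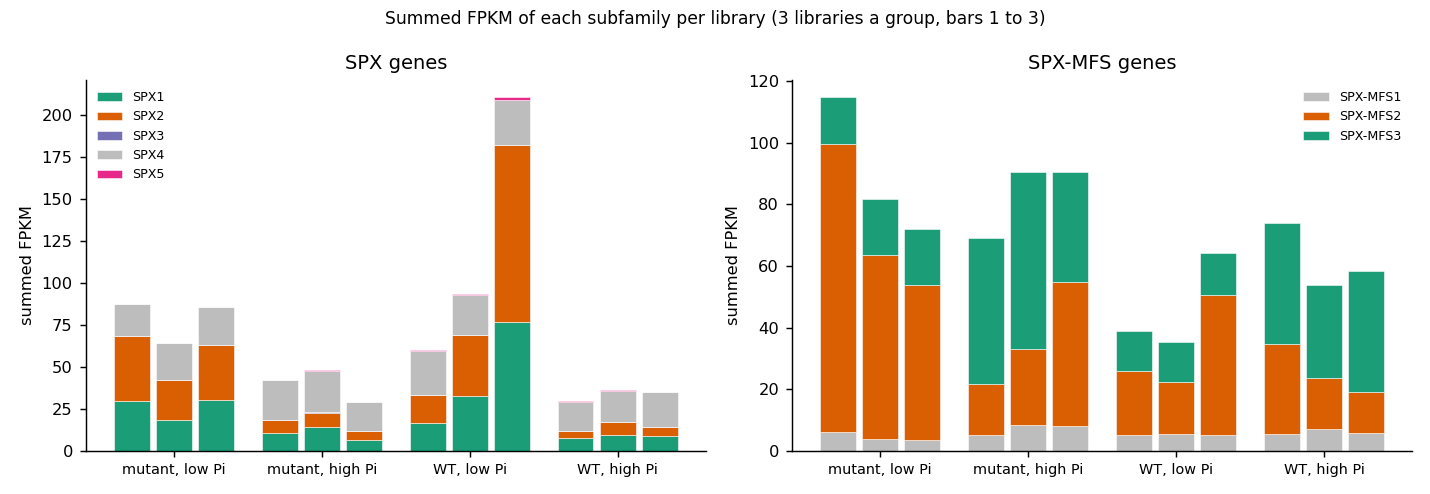
Summed FPKM (vertical axes) of the 5 SPX genes with data (left) and of the 3 SPX-MFS genes (right), 1 stacked bar per library and 1 colour per gene, by group. The SPX sum is larger at low Pi with SPX1 and SPX2 filling most of it, and SPX-MFS2 is the largest part of every low-Pi SPX-MFS bar.

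Summed over the 5 SPX genes with data, the level averaged 79.3 ± 12.9 FPKM in mutant leaves at low Pi and 39.8 ± 9.63 FPKM in mutant leaves at high Pi. It averaged 121 ± 79.2 FPKM in WT leaves at low Pi and 33.5 ± 3.54 FPKM in WT leaves at high Pi (SD, n = 3 each). The WT low-Pi sums ran from 60.0 to 211 FPKM, and without library 3 their mean was 76.7 FPKM. SPX4 supplied 27.4% of the sum at low Pi and 56.2% at high Pi in the mutant. In WT it supplied 27.4% at low Pi and 57.3% at high Pi, or 34.8% at low Pi without library 3, so the SPX genes apart from SPX4 made up most of the mean sum at low Pi in both genotypes.

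SPX-MFS3 (LOC_Os06g03860), a vacuolar Pi transporter, fell at low Pi in both genotypes. It had 15.2, 18.2 and 18.3 FPKM in mutant leaves at low Pi, against 47.3, 57.3 and 35.7 FPKM in mutant leaves at high Pi. It had 13.1, 12.9 and 13.3 FPKM in WT leaves at low Pi, against 39.2, 30.2 and 39.2 FPKM in WT leaves at high Pi. The groups lay far apart in both genotypes, and the 3 WT low-Pi libraries were nearly equal, with a log2 SD of 0.02 at percentile 1.59 of the tested genes.

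SPX-MFS3 fell by 1.37 ± 0.16 (SE) on the log2 scale in the mutant (95% interval -1.72 to -1.02, adjusted p = 0.000305 in limma). It fell by 1.39 ± 0.16 in WT (interval -1.74 to -1.04, adjusted p = 0.000324). Both calls held in 21 of 21 alternative settings. The response difference, mutant minus WT, was 0.02 with an interval of -0.47 to 0.51, so the fit leaves room for a difference of that size in either direction.

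SPX-MFS2 (LOC_Os02g45520) had the largest log2 fold between the genotypes at low Pi among the 6 tested members, though it missed the threshold. It had 93.5, 59.6 and 50.2 FPKM in mutant leaves at low Pi, against 16.6, 24.5 and 46.7 FPKM in mutant leaves at high Pi. It had 20.8, 17.0 and 45.5 FPKM in WT leaves at low Pi, against 29.2, 16.7 and 13.4 FPKM in WT leaves at high Pi. The 3 mutant low-Pi libraries were the highest of the 12, the WT groups overlapped, and mutant high-Pi library 3 and WT low-Pi library 3 stood above the others of their groups.

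The log2 fold of SPX-MFS2 for mutant against WT at low Pi was 1.34 ± 0.43 (SE), with an interval of 0.38 to 2.29, and it missed the threshold at adjusted p = 0.0581 in limma. It passed in 6 of 21 alternative settings, and its adjusted p over them ranged from 0.0355 to 0.193. For low against high Pi it was 1.26 ± 0.43 in the mutant (interval 0.31 to 2.21, adjusted p = 0.0643) and 0.42 ± 0.43 in WT (interval -0.54 to 1.37, adjusted p = 0.58). The difference between those responses was 0.84 with an interval of -0.50 to 2.19 and was not called (adjusted p = 0.517).

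SPX-MFS1 (LOC_Os04g48390) was the weakest of the transporters. It had 6.01, 3.94 and 3.55 FPKM in mutant leaves at low Pi, against 5.04, 8.49 and 8.09 FPKM in mutant leaves at high Pi. It had 5.05, 5.48 and 5.15 FPKM in WT leaves at low Pi, against 5.50, 6.94 and 5.69 FPKM in WT leaves at high Pi. The mutant groups overlapped through library 1 of each, and the WT low-Pi libraries lay just below the WT high-Pi libraries.

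The log2 fold of SPX-MFS1 was -0.58 ± 0.19 (SE) in the mutant (interval -0.995 to -0.155, adjusted p = 0.0572 in limma) and -0.17 ± 0.19 in WT (interval -0.59 to 0.25, adjusted p = 0.604). The mutant value passed the threshold when mutant low-Pi library 1 (adjusted p = 0.0215) or mutant high-Pi library 1 (adjusted p = 0.0124) was left out. The response difference was -0.40 with an interval of -0.996 to 0.19.

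The transporters changed rank while their sum changed less than that of the SPX genes. The SPX-MFS sum averaged 89.5 ± 22.3 FPKM in mutant leaves at low Pi and 83.2 ± 12.4 FPKM in mutant leaves at high Pi. It averaged 46.1 ± 15.6 FPKM in WT leaves at low Pi and 62.0 ± 10.5 FPKM in WT leaves at high Pi. SPX-MFS2 supplied 74.7% of the sum at low Pi and 34.3% at high Pi in the mutant, and 57.5% at low Pi and 31.2% at high Pi in WT. The ratio of SPX-MFS2 to SPX-MFS3 was 2.74 to 6.16 in mutant leaves at low Pi, against 0.35 to 1.31 in mutant leaves at high Pi. It was 1.31 to 3.42 in WT leaves at low Pi, against 0.34 to 0.74 in WT leaves at high Pi.

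**Figure D3:**
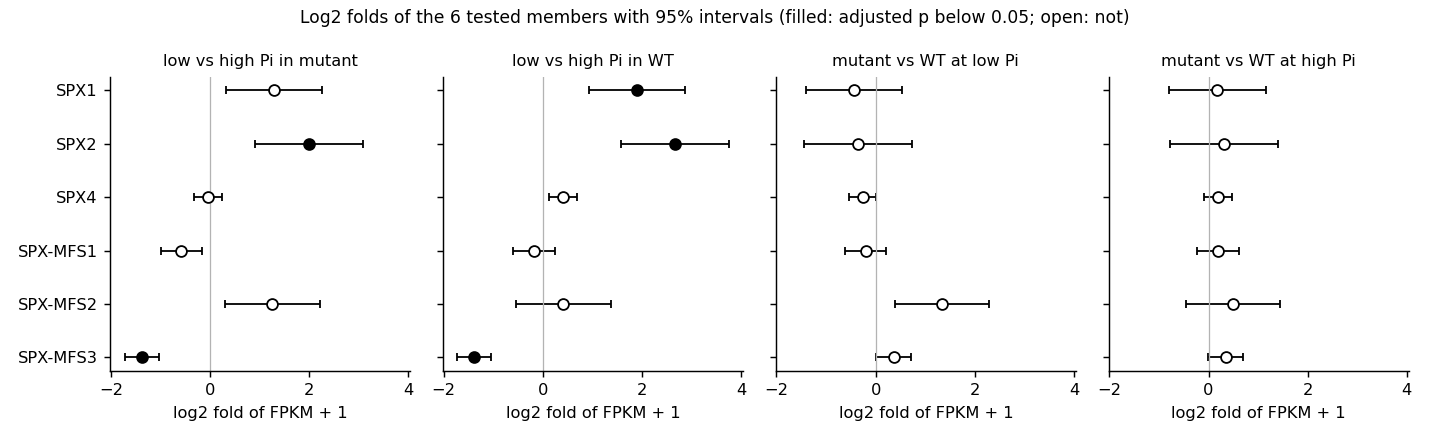
Log2 folds (horizontal axes, of FPKM + 1) of the 6 tested members with 95% intervals from limma, in 4 comparisons, filled where the adjusted p was below 0.05. SPX2 and SPX-MFS3 are filled for the mutant, SPX1, SPX2 and SPX-MFS3 for WT, and none is filled for mutant against WT at low or high Pi.

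Between the genotypes, no member passed the threshold. At high Pi, 0 of the 6 tested members were called by limma, beside 3.58% of all tested genes. An unadjusted p below 0.05 was found for 0 of the 6, beside 3860 of the 17630 tested genes. The genotypes overlapped for each of the 6, so 0 were without overlap, beside 24.2% of all tested genes. All 6 log2 folds were above 0, from 0.18 for SPX1 to 0.49 for SPX-MFS2. SPX-MFS3 had the smallest adjusted p, 0.232, with a log2 fold of 0.35 and an interval of -0.0025 to 0.69.

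At low Pi, 0 of the 6 were called by limma, beside 15.9% of all tested genes. An unadjusted p below 0.05 was found for 2 of the 6, SPX-MFS2 and SPX-MFS3, beside 5535 of the 17630 tested genes. The libraries of the genotypes did not overlap for 3 of the 6, beside 37.7% of all tested genes. These were SPX-MFS2, SPX-MFS3 with a log2 fold of 0.36 (adjusted p = 0.142), and SPX4 with -0.26 (adjusted p = 0.184). SPX1 had -0.43 with an interval of -1.40 to 0.54, SPX2 -0.36 with -1.45 to 0.73, and SPX-MFS1 -0.20 with -0.62 to 0.22. For SPX1 and SPX2 these intervals allow changes of more than 1 log2 unit downwards, so a lack of a call does not show equal levels.

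For the difference between the low-Pi responses of the genotypes, 0 of the 6 were called by limma, beside 3.64% of all tested genes. An unadjusted p below 0.05 was found for 1 of the 6, SPX4, beside 3332 of the 17630 tested genes. The 2 within-genotype comparisons share no library, while each genotype comparison shares libraries with both of them. All comparisons share 1 estimate of spread per gene from the 12 libraries, so the SE of SPX1 was 0.44 in both genotypes.

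The authors' deposited table marked 4 members between low and high Pi in the mutant, SPX1, SPX2, SPX-MFS2 and SPX-MFS3, beside 4.79% of its 32846 genes. In WT, the authors' deposited table marked 3, SPX1, SPX2 and SPX-MFS3, beside 3.85%. The authors' deposited table marked 0 members between the genotypes at high Pi, beside 2.89%. At low Pi the authors' deposited table marked 1, SPX-MFS2, beside 4.94%, and gave SPX-MFS3 a q-value of 0.01 without a mark. The members marked there and not called by limma were SPX1 and SPX-MFS2 in the mutant and SPX-MFS2 between the genotypes at low Pi. The marks and the limma calls rest on different tests and on 32846 against 17630 genes, so their shares are not directly comparable.

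**Figure D4:**
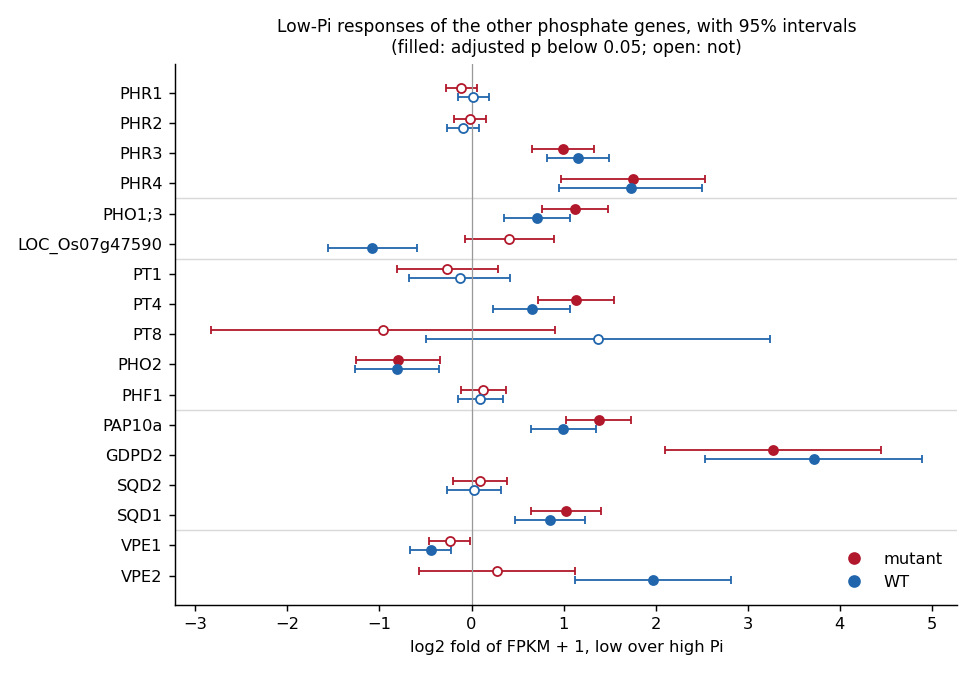
Log2 folds (horizontal axis, of FPKM + 1) for low over high Pi in the mutant (red) and in WT (blue) of the other tested genes of Pi signalling and transport, with 95% intervals, filled where the adjusted p was below 0.05; lines part the lists. GDPD2, PHR3, PHR4, PHO1;3, PT4, PAP10a and SQD1 are filled above 0 in both genotypes, PHO2 is filled below 0 in both, and LOC_Os07g47590, VPE1 and VPE2 are filled for WT and open for the mutant.

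Genes that work with the family were read from lists. Of 4 PHR regulators, all tested, 2 rose at low Pi in both genotypes and 2 were not called. The shares called over all tested genes were 18.8% in the mutant and 13.3% in WT. PHR3 (LOC_Os02g04640) averaged 3.38 ± 0.63 FPKM at low Pi and 1.19 ± 0.19 FPKM at high Pi in the mutant, and 4.06 ± 0.66 FPKM at low Pi and 1.27 ± 0.35 FPKM at high Pi in WT (SD, n = 3 each). PHR4 (LOC_Os06g49040) had log2 folds of 1.75 in the mutant (adjusted p = 0.00636) and 1.73 in WT (adjusted p = 0.00929). PHR2, the main PHR factor of rice, had -0.02 and -0.09 and was not called. The list's median log2 fold was 0.49 in the mutant and 0.59 in WT, beside 0.00 and 0.07 over all tested genes.

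Of 4 other genes for proteins with an SPX domain, 2 were tested. PHO1;3 (LOC_Os06g29790), of the PHO1 family of Pi exporters, rose at low Pi by 1.13 ± 0.16 (SE) on the log2 scale in the mutant (adjusted p = 0.00106) and by 0.71 ± 0.16 in WT (adjusted p = 0.0161). The WT call was lost in 3 of 21 alternatives, those that left out library 2 or 3 at low Pi or library 3 at high Pi in WT, with adjusted p between 0.0553 and 0.0598. PHO1;1 and PHO1;2 stayed under the filter.

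The other tested gene, LOC_Os07g47590 (described as an expressed protein), had 7.00, 10.9 and 8.27 FPKM in mutant leaves at low Pi, against 7.40, 6.21 and 5.19 FPKM in mutant leaves at high Pi. It had 6.43, 3.9 and 2.9 FPKM in WT leaves at low Pi, against 10.2, 10.6 and 9.21 FPKM in WT leaves at high Pi. The WT groups did not overlap, and the mutant groups did. Its log2 fold was 0.41 ± 0.22 (SE) in the mutant (adjusted p = 0.218) and -1.08 ± 0.22 in WT (adjusted p = 0.00866).

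Among the members and listed genes, only the response difference of LOC_Os07g47590 was called, beside 3.64% of all tested genes. By list, 0 of 6 members, 0 of 4 PHR regulators and 1 of these 2 SPX-domain genes were called. In the other lists it was 0 of 5 genes of Pi uptake and its control, 0 of 4 starvation enzymes and 0 of 2 efflux transporters. A single call among them lies close to the background share and is not a result about the set. The difference of LOC_Os07g47590, mutant minus WT, was 1.49 ± 0.31 (adjusted p = 0.0259 in limma). That call was lost in 6 of 20 alternatives, with adjusted p over all 20 between 0.00472 and 0.0732: without the filter, and when library 2 of any of the 4 groups or the third WT low-Pi library was left out. At low Pi it was higher in the mutant than in WT by 0.88 (adjusted p = 0.0209), a call lost when library 2 of that mutant group, or library 2 or 3 of that WT group, was left out (adjusted p = 0.0817, 0.0643 and 0.0823).

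Of 5 enzymes of the Pi starvation response, 4 were tested, and 3 rose in both genotypes. Over all tested genes, 18.8% were called in the mutant and 13.3% in WT. GDPD2 (LOC_Os02g31030), a glycerophosphodiester phosphodiesterase that frees glycerol phosphate from lipid breakdown products, had 14.6, 10.4 and 16.0 FPKM in mutant leaves at low Pi, against 0.53, 0.46 and 0.50 FPKM in mutant leaves at high Pi. It had 7.23, 16.5 and 62.9 FPKM in WT leaves at low Pi, against 0.71, 0.83 and 0.30 FPKM in WT leaves at high Pi. Its WT low-Pi libraries stood in the same order as those of SPX1 and SPX2.

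GDPD2 had log2 folds of 3.27 in the mutant (adjusted p = 0.00204) and 3.71 in WT (adjusted p = 0.00129), or 2.91 in WT without WT low-Pi library 3 (adjusted p = 0.000392). PAP10a, a purple acid phosphatase, rose by 1.38 in the mutant and 1.00 in WT. SQD1, which makes a sulfolipid precursor, rose by 1.03 in the mutant and 0.85 in WT. SQD2 had 0.09 and 0.03 and was not called, and the list's medians were 1.20 and 0.93. In these lists, every named call without its own adjusted p had one below 0.05 in limma.

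Of 13 genes of Pi uptake and its control, 5 were tested and 8 stayed under the filter. Between low and high Pi, 1 rose, 1 fell and 3 were not called in each genotype, beside 18.8% called in the mutant and 13.3% in WT over all tested genes. PHO2, an enzyme of ubiquitin transfer that lowers Pi transporter abundance, fell by 0.80 in the mutant (adjusted p = 0.0213) and by 0.81 in WT (adjusted p = 0.0264). Those calls were lost in 4 and 5 of 21 alternatives. PT4, a Pi transporter, rose by 1.13 in the mutant (adjusted p = 0.00223) and by 0.65 in WT (adjusted p = 0.0429), and the WT call was lost in 14 of 21 alternatives. PT1, another Pi transporter, averaged 32.5 ± 6.26 FPKM in mutant leaves and 63.4 ± 6.81 FPKM in WT leaves at low Pi, a log2 fold of -0.96 (adjusted p = 0.0257) that lost its call in 5 of 21 alternatives. At high Pi PT1 averaged 40.1 FPKM in mutant leaves and 71.1 FPKM in WT leaves. That log2 fold of -0.82 was not called (adjusted p = 0.0919 in limma). The response difference of PT1 was -0.14 and was not called (adjusted p = 0.888). The list's median low-Pi fold was -0.26 in the mutant and 0.09 in WT.

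The vacuolar Pi efflux transporters VPE1 (LOC_Os04g46880) and VPE2 (LOC_Os08g06010) release stored Pi. VPE1 averaged 127 ± 7.37 FPKM in mutant leaves and 86.6 ± 8.56 FPKM in WT leaves at low Pi, a log2 fold of 0.55 (adjusted p = 0.00607). It fell at low Pi in WT by 0.44 (adjusted p = 0.0147), a call lost in 3 of 21 alternatives. In the mutant VPE1 had a log2 fold of -0.24 that was not called (adjusted p = 0.122 in limma). Its response difference of 0.21 was not called (adjusted p = 0.486). At high Pi its log2 fold for mutant against WT was 0.35 and was not called (adjusted p = 0.0789).

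VPE2 had 15.8, 11.9 and 17.6 FPKM in mutant leaves at low Pi, against 12.1, 16.1 and 9.33 FPKM in mutant leaves at high Pi. It had 15.4, 35.5 and 58.7 FPKM in WT leaves at low Pi, against 10.1, 5.58 and 7.11 FPKM in WT leaves at high Pi. VPE2 had a log2 fold of 0.27 in the mutant (adjusted p = 0.666) and rose in WT by 1.97 (adjusted p = 0.0072), or 1.54 without WT low-Pi library 3 (adjusted p = 0.0245). Its response difference of -1.70 was not called (adjusted p = 0.117).

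**Figure D5:**
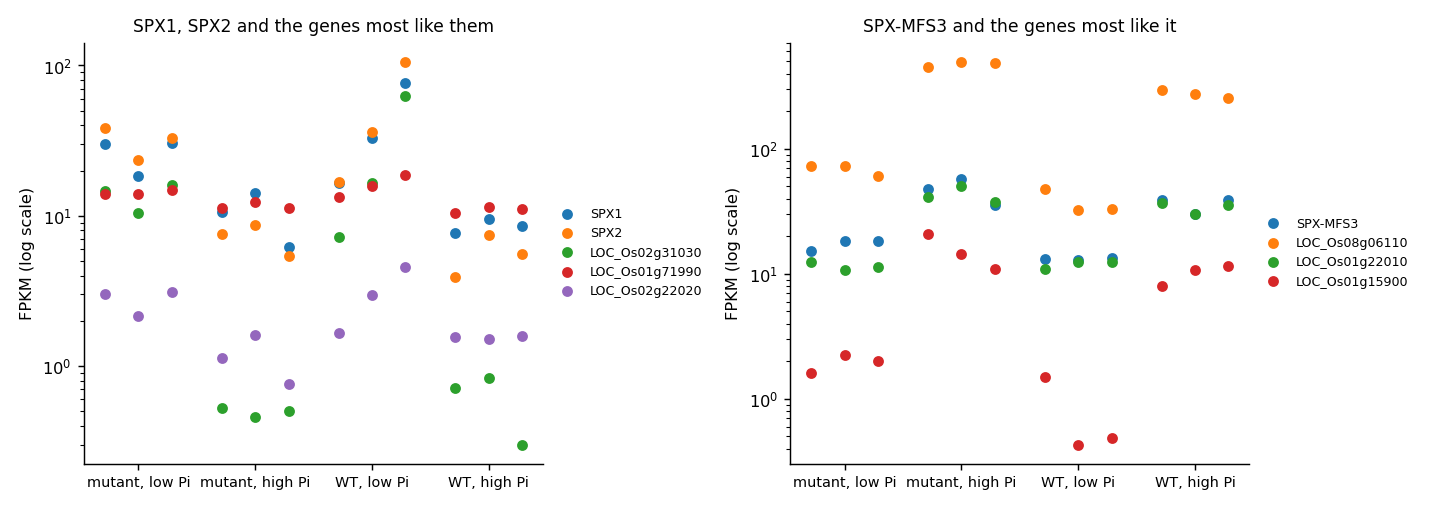
FPKM (log axis) in each of the 12 libraries for SPX1, SPX2 and the genes most correlated with them (left) and for SPX-MFS3 and the genes most correlated with it (right); 1 colour per gene, 3 points a group for libraries 1 to 3; LOC_Os02g31030 is GDPD2. All 5 genes on the left are highest in WT low-Pi library 3 and all 4 on the right are lower at low than at high Pi in both genotypes.

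Pearson correlations of log2(FPKM + 1) over the 12 libraries, which share the group structure, describe which genes had the most similar profiles. SPX1 and SPX2 were each other's nearest of all tested genes (r = 0.981). The next for SPX1 were LOC_Os01g71990, a putative pyrroline-5-carboxylate reductase (r = 0.973), and LOC_Os02g22020, a putative MYB factor (r = 0.950). The next for SPX2 were LOC_Os01g71990 (r = 0.979) and GDPD2 (r = 0.976).

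The other members had nearest genes outside the family. Those of SPX4 were LOC_Os02g53500 (a putative replication factor C subunit, r = 0.916), LOC_Os01g16220 (r = 0.896) and LOC_Os03g55920 (r = 0.894). Those of SPX-MFS1 were LOC_Os01g22450 (r = 0.899), LOC_Os04g35864 (r = 0.886) and LOC_Os03g22780 (r = 0.881). Those of SPX-MFS2 were LOC_Os11g06690, a putative serine esterase (r = 0.956), LOC_Os06g22140, a putative thioredoxin reductase (r = 0.949), and LOC_Os04g40050 (r = 0.944). Within the family, SPX-MFS3 had r = -0.834 with SPX2 and -0.759 with SPX1, while SPX-MFS2 had 0.489 with SPX2 and -0.392 with SPX-MFS3.

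The nearest genes of SPX-MFS3 were LOC_Os08g06110, a putative MYB factor annotated to circadian rhythm in the files (r = 0.965), LOC_Os01g22010, a putative S-adenosylmethionine synthetase (r = 0.965), and LOC_Os01g15900 (r = 0.963). LOC_Os08g06110 had 72.6, 72.6 and 60.7 FPKM in mutant leaves at low Pi, against 448, 496 and 483 FPKM in mutant leaves at high Pi. It had 47.9, 32.2 and 32.8 FPKM in WT leaves at low Pi, against 295, 275 and 254 FPKM in WT leaves at high Pi. Its log2 fold was -2.78 in the mutant and -2.85 in WT (adjusted p = 1.12e-06 and 1.82e-06 in limma). The gene was picked for its likeness to SPX-MFS3 over these same libraries, so this fall is not separate support. Unlike SPX-MFS3, it was also called between the genotypes. It was higher in the mutant by 0.79 at high Pi (adjusted p = 0.0189) and by 0.87 at low Pi (adjusted p = 0.00424). The labels state no time of day for the harvest, whose part in the SPX-MFS3 result was not tested.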

How the data were processed

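The authors deposited FPKM per gene and library, with their own p-value and q-value for each of 4 comparisons, per the file headers; each library stood in 2 tables, with identical values in 12 of 12. CASAVA 2.17, HISAT2 2.0.5 and StringTie 1.3.6 are named in the submitters' processing notes; genome build, annotation and treatment of multiply mapped reads were not given in the sources used, and SPX3 and SPX5 could share reads. No step of single reads was found in low values (fullest window at most 8.1% of ratios over 66 pairs), so depth is unknown. The p-values and q-values were printed to 2 decimals.

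Values were transformed as log2(FPKM + 1), which understates folds of low genes. The filter kept genes that reached FPKM 1 in 3 or more libraries. One limma 3.58.1 model (R 4.3.3) over 12 libraries and 4 groups, with a mean trend and no block, gave 5 contrasts, two-sided, with Benjamini-Hochberg adjustment over 17630 genes; it was tested on simulated data. The 5 contrasts were low against high Pi in each genotype, mutant against WT at each Pi level, and the mutant minus WT difference of the Pi responses. Alternatives were pseudocounts of 0.1 and 0.5, no filter, a filter at FPKM 5, median-of-ratios and upper-quartile scaling, a replicate block, no mean trend, only the 2 groups compared, and leaving out each library. Python 3.11.15 (numpy 2.4.6, pandas 2.3.3, matplotlib 3.10.9) handled tables and plots.

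The members and lists were chosen with earlier results of these data known. The files pair no symbols with loci, so symbols come from the member list and general knowledge. Named were all members, the list genes with the smallest p among those called (up to 4 a list and contrast; values given for genes not called there, such as PHR2 and SQD2, were added after they were seen), OsHMGB1, and the 3 genes most correlated with each member.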

Additional observations from a re-analysis of the deposited data

Results flagged for a closer look

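LOC_Os07g47590, listed among the other genes for proteins with an SPX domain, was called for the difference between the low-Pi responses of the genotypes. Its mutant minus WT log2 difference was 1.49 (adjusted p = 0.0259, limma), and 6 of 20 alternatives lost the call. No other member or listed gene was called for that difference, beside 3.64% of all tested genes. A single call among them lies close to that share and is not a result about the set. A range-based check needs at least 4 libraries a group, so with 3 it could flag no single library. The lack of a flag says nothing about WT low-Pi library 3. Without that library, the genes called between low and high Pi in WT numbered 1128, against 2345 with it.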

How the results depend on the processing

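Low-Pi calls of SPX-MFS3 in the mutant and of SPX1, SPX2 and SPX-MFS3 in WT held in 21 of 21 alternatives. The adjusted p of SPX1 in WT reached 0.0477 among them (limma). Some alternatives cannot change such a fold and vary only its spread or adjustment. These are the other filters, the replicate block, no mean trend, only the 2 groups, and leaving out a library of the other genotype. Of 624 member results under an alternative, 593 kept direction and side of the threshold, 16 gained a call, 3 lost one and 12 changed sign. The sign changes all came from leaving out 1 library: over these settings SPX4 in the mutant ranged from -0.192 to 0.0453, SPX1 between genotypes from -0.0629 to 0.477 at high and -0.945 to 0.129 at low Pi, SPX2 from -0.976 to 0.322 at low Pi and -1.29 to 0.0046 for the response difference, and the SPX-MFS3 difference from -0.159 to 0.176. At low Pi, members called between genotypes numbered 1 (SPX-MFS2) under upper-quartile scaling and 2 (with SPX-MFS3) with only the 2 groups.

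Genes called for mutant against WT at high Pi numbered 631, but 417 with a filter at FPKM 5, 312 with the replicate block and 108 with only the 2 groups. For the response difference they numbered 641, but 366 without a filter and 391 with the replicate block. Leaving out 1 library gave 1985 to 3319 genes for the Pi response in the mutant, 1128 to 2623 in WT, 176 to 845 for genotype at high Pi, 1246 to 3074 at low Pi and 258 to 880 for the difference, and, in that order, 1 to 4, 3 to 4, 0, 0 to 1 and 0 members. The lowest counts came without WT low-Pi library 3 (WT, and genotype at low Pi), mutant low-Pi library 2, and WT high-Pi library 3 or 2. Scaling moved the higher share of called genes in WT from 63.4% to 46.8% (median-of-ratios), and at low Pi between genotypes from 29.8% to 49.6%; it changed no member's direction. Same-numbered libraries correlated above 0.1 in 3 of 18 pairs and 0 of 12 libraries matched their own number best, so the numbers were not taken as pairs; the replicate block changed no member's call. The causes were not tested. With 3 libraries a group and unknown depth, SPX3 and SPX5 cannot be resolved.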
